A study of Canis lupus familiaris with 14 samples.

Results

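The genes described here encode the subunits of the transcription factor NF-kB and its inhibitors, followed across lymph node aspirates of dogs with lymphoma and of normal dogs. The members were chosen by symbol: NFKB1, NFKB2, RELA, REL and RELB for the subunits, NFKBIA and NFKBIE for the inhibitors that bind NF-kB, and TNFAIP3 and TNIP1 for proteins that dampen the signal upstream. All 9 members were on the array, with 13 of the 29254 probe sets that carry exactly 1 gene symbol, and they are 9 of 15115 genes. NFKB1 had 3 probe sets, NFKB2 and TNIP1 had 2 each, and the other members had 1 each. Where a gene had several they are named by the start of their array identifier, Cfa or CfaAffx.

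RNA from fine needle aspirates was measured on 14 GeneChip Canine Genome V2.0 arrays. The groups were 7 companion dogs with a label of B-cell lymphoma (RB07, RB10, NE42, NE41, RB03, FS21 and RB16) and 3 labelled T-cell lymphoma (NE45, FS25 and FS22). The normal group was 4 lymph nodes from 3 dogs of a Beagle colony (63, 2970, and 3024l and 3024r, which are nodes of the same animal). The lymphoma dogs were Boxers, retrievers, a Pointer, a Beagle and mixed breeds, so breed and disease differ together and cannot be told apart in full. Their aspirates were collected at clinical sites and the normal ones from the colony. Source of the dogs and disease therefore cannot be told apart at all. According to the study's subject table, FS21, RB07, FS22 and FS25 had relapsed after earlier chemotherapy, and the labels state no controlled treatment. The study also divided the lymphomas into a class E-J (FS21, NE41, NE42, RB03, RB16 and FS22) and a class K-N (RB07, RB10, FS25 and NE45). These classes were drawn from the expression profiles of the same arrays and of sequencing of the same RNA, so differences between them are given here as descriptions, with no test.

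NF-kB is a family of dimers that rest in the cytoplasm until a receptor signal releases them. The protein of NFKBIA, IkB-alpha, holds the dimers there and is destroyed when the pathway is switched on, and NFKBIA and TNFAIP3 are themselves induced by NF-kB, which closes a feedback loop. B cells rely on c-Rel, the product of REL, and on the pathway downstream of CD40 and the B-cell receptor, and mutations of this pathway are known in human lymphomas.

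The values are log2 of the MAS5 signal, an intensity that has no fixed zero between probe sets, so a level is compared here only with the same gene or probe set on other arrays. A gene's level is the mean log2 signal over its probe sets, and a gene was tested where its signal reached 100 (6.64 on the log2 scale) on at least 3 arrays of a comparison. The arrays had been scaled alike, and 47.2% to 55.7% of the probe sets on each reached a signal of 100. The ratio of 3' to 5' probe sets for GAPDH, a sign of RNA quality, was 23.2 on 3024l and 3.30 to 8.94 on the other arrays. The labels were compared with CD79A, a B-cell receptor chain, and CD3E, a T-cell receptor chain. RB07 and RB10, labelled B-cell, had low CD79A (8.06 and 8.11) and high CD3E (12.11 and 12.54). FS22 carries the T-cell label, and its levels were 10.09 for CD79A and 8.80 for CD3E. The calls in 10 lymphomas against 3 normal dogs are given with and without these 3 arrays, 3024l and both nodes of dog 3024.

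RELB, a subunit of the alternative NF-kB pathway, and NFKBIE, which encodes IkB-epsilon, were too dim to test. RELB reached a signal of 100 on 2 of 14 arrays, 2970 (6.998) and NE41 (7.04), and ranged from 2.68 to 7.04. NFKBIE reached it on 1 array, RB03 (7.09), and ranged from 2.01 to 7.09. Values this low carry no order between arrays. The other 7 members were tested in 10 lymphomas against 3 normal dogs.

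**Figure D1:**
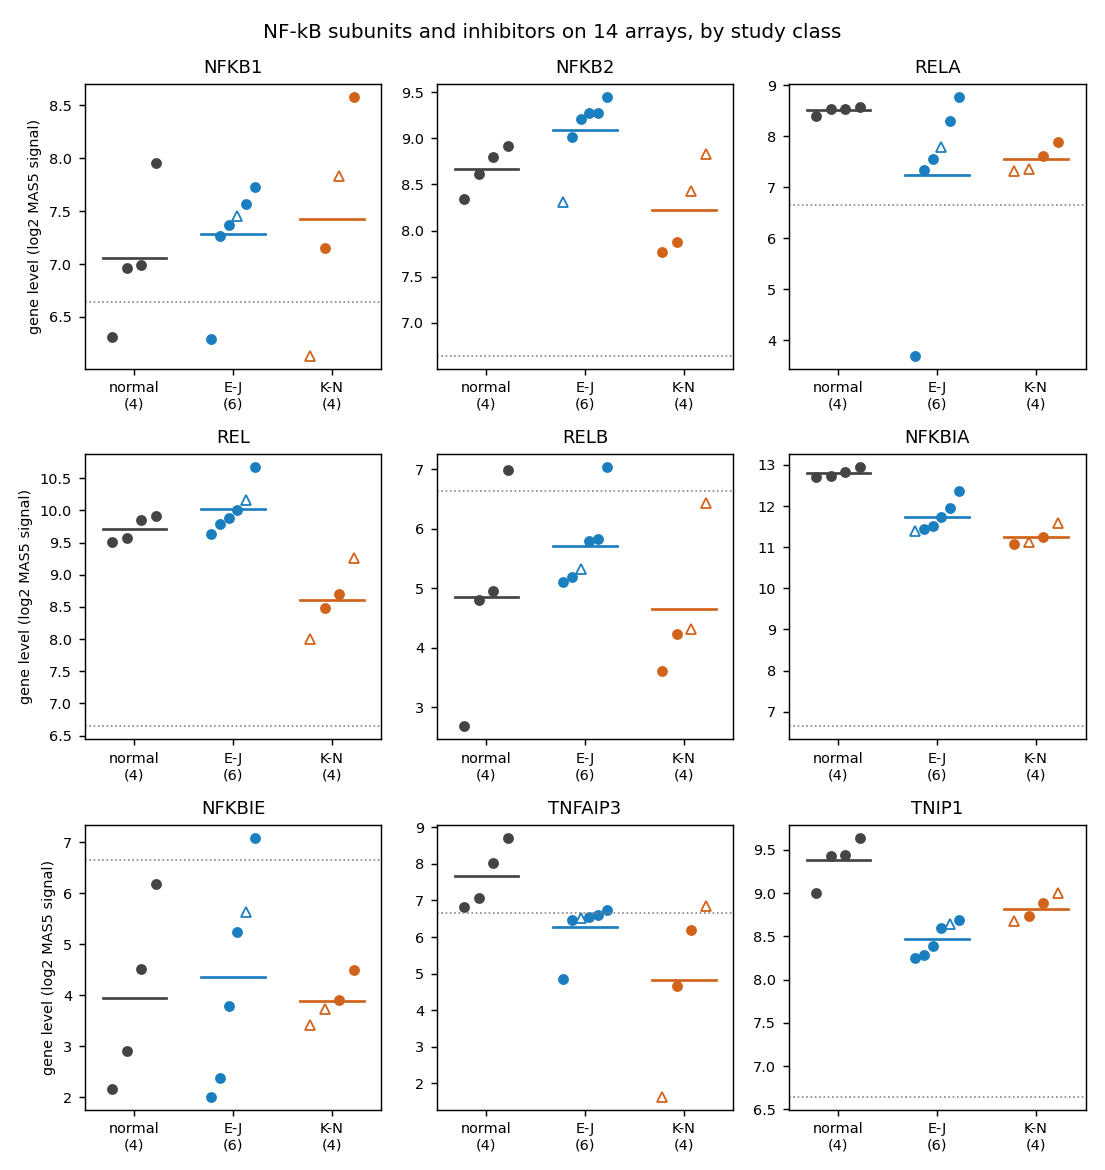
Gene level (log2 MAS5 signal) of the 9 members on each of the 14 arrays, grouped by normal node, class E-J and class K-N, with the number of arrays in parentheses; circles are normal nodes and arrays labelled B-cell, open triangles are arrays labelled T-cell, bars are means, and the dotted line is a signal of 100. The 4 normal nodes lay above every lymphoma for NFKBIA, and class K-N lay below every other array for REL; each panel has its own scale.

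NFKBIA was lower in the lymphomas. Of the 7 tested members it alone passed the test in 10 lymphomas against 3 normal dogs, in a comparison in which 3.63% of 9400 genes passed, 2.60% lower and 1.03% higher. NFKBIA (Entrez gene 480291 in the array's table) had log2 levels of 12.83 on node 63, 12.95 on 2970, 12.73 on 3024l and 12.72 on 3024r. In the lymphomas its lowest level was 11.07, its median 11.48 and its highest 12.37, in RB03. The normal nodes and the lymphomas did not overlap. With the nodes of dog 3024 averaged, the lymphomas had a mean of 11.55 ± 0.40 (SD, n = 10) and the normal dogs 12.83 ± 0.11 (SD, n = 3), a log2 difference of -1.29 (SE 0.27, adjusted p = 0.0262 by limma with Benjamini-Hochberg adjustment), or a signal 2.44-fold lower. Without RB07, RB10 and FS22 the difference was -1.16 and the adjusted p of limma 0.0527, while without 3024l alone it was -1.28 (adjusted p = 0.0201), and without dog 3024 it was -1.34 with an adjusted p of 0.0855. Without 63 the adjusted p was 0.0959 (difference -1.29) and without 2970 it was 0.173 (difference -1.23).

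TNIP1 (Entrez gene 489178) encodes ABIN1, which binds the A20 protein and ubiquitin chains and restrains the pathway. Its gene level was 9.64 on 63, 9.44 on 2970, 8.996 on 3024l and 9.43 on 3024r, and in the lymphomas the lowest was 8.25, the median 8.66 and the highest 8.997, in NE45. Node 3024l and NE45 were level, and the other normal nodes lay above every lymphoma. The log2 difference was -0.82 (SE 0.22, adjusted p = 0.0557 by limma), which missed the threshold. Without 3024l it passed, with a difference of -0.89 and an adjusted p of 0.0305 by limma, while without RB07, RB10 and FS22 the adjusted p was 0.0795 and without dog 3024 it was 0.123. Its probe sets differed in how closely the normal nodes lay together. On the CfaAffx probe set the normal nodes were at 9.44 (63), 9.37 (2970), 9.32 (3024l) and 9.41 (3024r), and the lymphomas ran from 8.27 over a median of 8.41 to 9.15, in NE45. No lymphoma reached the normal nodes on this probe set. On the Cfa probe set node 3024l was at 8.67 and the other normal nodes at 9.45 to 9.84, against 7.83 to 9.14 in the lymphomas, so that the groups overlapped through 3024l.

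TNFAIP3 encodes A20, an enzyme that edits ubiquitin chains and ends NF-kB signalling, and it is lost by mutation in some human B-cell lymphomas. Its levels were 8.04 on 63, 8.72 on 2970, 7.08 on 3024l and 6.83 on 3024r. In the lymphomas the lowest was 1.63 (NE45), the median 6.49 and the highest 6.85 (FS25). The highest lymphoma lay above node 3024r and below the other normal nodes, and 8 of the 10 lymphomas were under a signal of 100. The mean was 5.70 ± 1.63 (SD, n = 10) against 7.90 ± 0.89 (SD, n = 3), a log2 difference of -2.20 (SE 0.92, adjusted p = 0.211 by limma). TNFAIP3 met the filter on dim genes only with the normal nodes, so this difference is a description and no evidence of a lower level.

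With 1 value per dog, NFKBIA and TNIP1 were lower in every lymphoma than in every normal dog. TNFAIP3 was listed lower in the same way, but most of its lymphoma values were under a signal of 100, and it could pass the filter on dim genes through the normal nodes alone. Of 9400 genes, 5.16% were lower without overlap in this way, and 7.60% in either direction. None of the 7 tested members was higher without overlap.

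The genes of the subunits did not pass the test. RELA, which encodes the p65 subunit, was at 8.40 to 8.56 on the 4 normal nodes and at 3.70 (RB16) to 8.77 (RB03) in the lymphomas, with a median of 7.58. Of the lymphomas RB03 lay above the normal nodes and the other 9 lay below them. The log2 difference was -1.13 (SE 0.76, adjusted p = 0.448 by limma), and without RB16 it was -0.72 (SE 0.32, adjusted p = 0.249). REL had a difference of -0.31 (SE 0.48, adjusted p = 0.786), NFKB1, which encodes p105 and its product p50, a difference of 0.26 (SE 0.47, adjusted p = 0.820), and NFKB2, which encodes p100 and its product p52, a difference of 0.09 (SE 0.37, adjusted p = 0.927), in the same limma fit. The direction of NFKB2 turned with the summary of its probe sets, to -0.20 for the mean of linear signals and -0.30 for its brightest probe set.

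**Figure D2:**
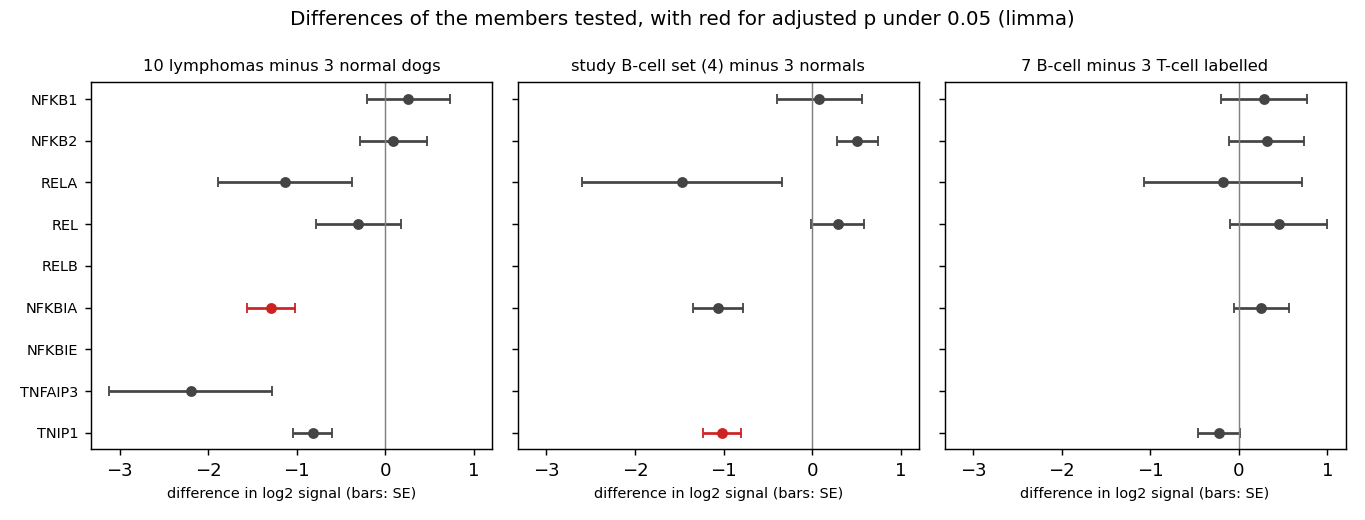
Difference in log2 signal of each tested member in 10 lymphomas minus 3 normal dogs, in the study's 4 B-cell lymphomas minus 3 normal nodes and in 7 B-cell labelled minus 3 T-cell labelled lymphomas; points are limma estimates, bars their SE, and red marks an adjusted p under 0.05. TNFAIP3 is not drawn in the second panel, where all 4 lymphomas were under a signal of 100. In the first panel it met the filter on dim genes only with the normal nodes. NFKBIA at -1.29 in the first panel and TNIP1 at -1.02 in the second are red, and no point is red in the third.

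Other cell types moved with this comparison. Of the myeloid markers 11 of 18 tested fell, of the endothelial markers 5 of 7, and of the stromal markers 3 of 10, and none of these rose. Among those called, CD163, CD209, VSIG4, CLEC4G, EGFL7 and DCN reached a signal of 100 in at most 2 of 10 lymphomas. They passed the filter on dim genes only through the normal nodes. The summed signal of 19 myeloid markers was 38553 to 105909 on the normal nodes and 9820 to 42924 in the lymphomas, and that of 12 endothelial markers was 8882 to 16168 against 1265 to 3905. Such sums weigh the brightest genes most. RB16 had the highest myeloid sum of the lymphomas with 9 of the 19 markers under a signal of 100. The sum over 12 stromal markers was 12479 to 14993 on the normal nodes and 1123 to 13158 in the lymphomas. The 11 B-cell and 18 T-cell markers tested did not pass, with medians of -0.83 and -1.01. Without RB07, RB10 and FS22 the counts that fell were 11 of 18 myeloid, 4 of 7 endothelial and 7 of 10 stromal markers, and without dog 3024 they were 5 of 17, 1 of 7 and 1 of 10. Their part in the lower level of NFKBIA was not tested. In such bulk aspirates fewer cells of a type and less RNA per cell cannot be told apart.

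The study's methods name 4 B-cell lymphomas (FS21, NE42, RB03 and RB16) for a comparison with 3 normal samples, which they do not name. The nodes 63, 2970 and 3024r were taken for it here. All of these arrays are also part of the comparison above, and the lymphomas were selected in part from their expression profiles. In it 10.9% of 8295 genes passed, 7.39% lower and 3.48% higher, and 1 of 7 tested members did, TNIP1. TNIP1 was at 8.59 in FS21, 8.28 in NE42, 8.68 in RB03 and 8.38 in RB16, and at 9.64 on 63, 9.44 on 2970 and 9.43 on 3024r. The groups did not overlap, and the log2 difference was -1.02 (SE 0.21, adjusted p = 0.0287 by limma), a signal 2.03-fold lower. Its CfaAffx probe set gave -1.07 (SE 0.20, adjusted p = 0.0270 by limma over 17289 probe sets, of which 8.04% passed), and its Cfa probe set gave -0.97 (SE 0.29, adjusted p = 0.0774). With 3024l in place of 3024r the difference in TNIP1 was -0.87 with an adjusted p of 0.128 by limma. TNIP1 was lower in all 20 alternatives run and passed in 8 of them. Leaving out a single array ended the call for NE42 (adjusted p = 0.0555), RB16 (0.0506), 63 (0.106), 2970 (0.128) and 3024r (0.109), and in those limma fits the difference was -1.05 to -0.95.

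NFKBIA was at 11.51 in FS21, 11.45 in NE42, 12.37 in RB03 and 11.73 in RB16, each below the 12.72 of node 3024r. Its log2 difference was -1.06 (SE 0.28, adjusted p = 0.0542 by limma), and without RB03, the highest of the 4, it was -1.27 with an adjusted p of 0.0174. TNFAIP3 was at 6.54, 6.46, 6.59 and 4.84 in the same order, all under a signal of 100. It was tested only because the 3 normal nodes reached that signal, so no difference is given for it.

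NFKB2 was the 1 tested member whose gene level was higher without overlap, at 9.01 to 9.27 in the 4 lymphomas against 8.34 to 8.91 on the 3 nodes. Its difference was 0.51 (SE 0.23, adjusted p = 0.188 by limma). Of its probe sets CfaAffx alone was higher without overlap, by 0.58 (adjusted p = 0.157 by limma over probe sets). On the Cfa probe set the ranges overlapped, with a difference of 0.44 (adjusted p = 0.385). Without overlap stood 31.7% of all genes in this comparison, 18.0% lower and 13.7% higher. Beside NFKB2, NFKBIA and TNIP1 had no overlap in this comparison, both lower, and TNFAIP3 is not counted since its lymphoma values were under a signal of 100. In RELA the difference was -1.47 (SE 1.13, adjusted p = 0.411 by limma), and without RB16 it was -0.36 (adjusted p = 0.564). REL differed by 0.29 (adjusted p = 0.542) and NFKB1 by 0.08 (adjusted p = 0.923) in that limma fit. Of the marker genes tested here, 11 of 17 T-cell, 11 of 18 myeloid, 6 of 7 endothelial and 8 of 10 stromal markers were called lower. Of the B-cell markers 3 of 11 were called higher. In CD5, CD6, CD7, TCF7, LAT, CD163, CD209, VSIG4, TIE1, COL3A1 and DCN every lymphoma was under a signal of 100. THEMIS, EGFL7, LUM and TAGLN reached that signal in 1 of 4 lymphomas each, and EMCN in 2 of 4. All of these were tested only through the normal nodes. The part of the marked cell types in the member values was not tested.

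Between the 7 lymphomas labelled B-cell and the 3 labelled T-cell, none of the 6 members tested passed, and 0% of 8567 genes did, by limma with Benjamini-Hochberg adjustment. At an unadjusted p under 0.05 there were 313 genes (3.65%) and 0 members, and limma with an intensity trend also called 0 genes. The differences of the members ran from -0.23 for TNIP1 to 0.45 for REL, with adjusted p values of 0.956 to 0.989 by limma. REL was at 8.49 (RB10) to 10.67 (RB03) in the B-cell labelled group, with a median of 9.79, and at 10.16 in FS22, 9.26 in NE45 and 8.01 in FS25. These ranges overlapped, as those of all 6 members did, while 0.875% of genes had no overlap. RB07, RB10 and FS22 stood out by their CD79A and CD3E levels. Without them the B-cell labelled arrays were all of class E-J, and NE45 and FS25 are of class K-N. That fit sets apart classes drawn from these same profiles, so it is no separate test of the labels. It called 0 members, and REL had the largest member difference at 1.36 (SE 0.44), given as a description.

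Between the study's lymphoma classes, REL was lower in class K-N. Class K-N had REL (Entrez gene 474606) levels of 8.70 in RB07, 8.49 in RB10, 8.01 in FS25 and 9.26 in NE45. Class E-J ran from 9.63 (FS21) over a median of 9.94 to 10.67 (RB03), and the normal nodes were at 9.92 (63), 9.84 (2970), 9.57 (3024l) and 9.50 (3024r). Each array of class K-N lay below each of the other 10, while class E-J and the normal nodes overlapped. The class means were 8.61 ± 0.52 (SD, n = 4) in K-N, 10.02 ± 0.37 (SD, n = 6) in E-J and 9.71 ± 0.20 (SD, n = 4) in normal nodes. REL was the single tested member of 7 that did not overlap between the classes, where 10.7% of 9400 genes did not, 6.26% lower and 4.45% higher in K-N. A count of 1 in 7 is near that share, so it is no result about the members as a set. FS22, labelled T-cell, had a REL level inside the range of the B-cell labelled arrays of its class, and RB07 and RB10, labelled B-cell, lay between the T-cell labelled FS25 and NE45.

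The classes also differed in lineage markers. The summed signal of 12 B-cell markers was 17520 to 37700 in class E-J and 363 to 2946 in class K-N, and that of 18 T-cell markers 3542 to 16347 and 60161 to 80579. Of the markers tested, 10 of 11 B-cell markers were lower and 16 of 18 T-cell markers higher in K-N without overlap. Whether the REL values go with this lineage difference was not tested.

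NFKB2 was lower in class K-N by 0.86 on average, with overlapping ranges, at 7.77 to 8.83 against 8.31 to 9.45 in class E-J. Its probe sets differed. The Cfa probe set was at 8.41 in RB07, 8.93 in RB10, 9.76 in FS25 and 10.04 in NE45, against a range of 10.00 (FS22) to 11.004 (FS21) in class E-J and 9.89 to 10.83 on the normal nodes. NE45 alone reached the lower edge of class E-J. The CfaAffx probe set was at 6.61 to 7.90 in K-N and 6.63 to 8.13 in E-J, with a class difference of -0.38 against -1.35 for the other probe set. Its normal nodes were at 6.40 to 7.24.

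**Figure D3:**
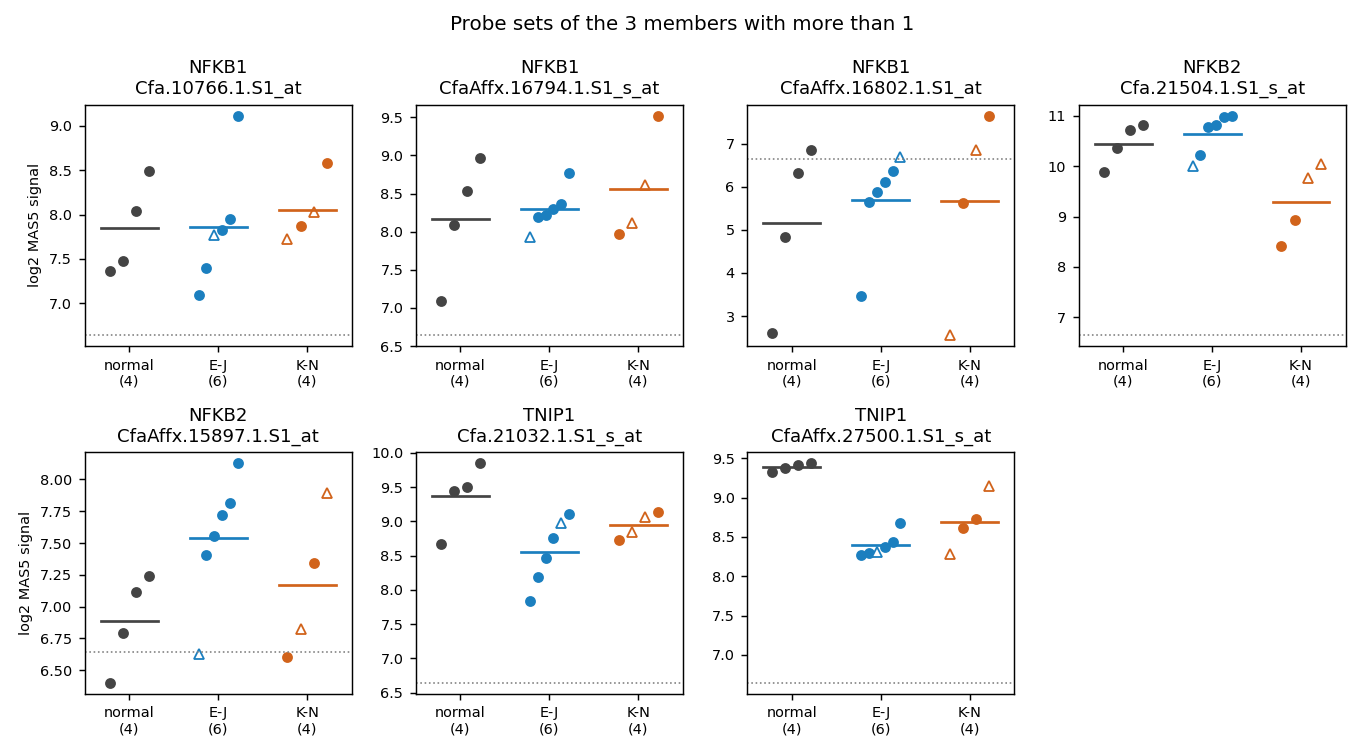
Log2 MAS5 signal of the 7 probe sets of NFKB1, NFKB2 and TNIP1 on the 14 arrays by class, with circles for normal nodes and B-cell labelled arrays, open triangles for T-cell labelled arrays, bars for means and a dotted line at a signal of 100. The normal nodes of the CfaAffx probe set of TNIP1 lie together at 9.32 to 9.44, above every lymphoma, and the Cfa probe set of NFKB2 is lowest in class K-N; each panel has its own scale.

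Against the normal nodes, both classes had lower NFKBIA without overlap. The class means of NFKBIA were 12.81 ± 0.11 (SD, n = 4) in normal nodes, 11.74 ± 0.38 (SD, n = 6) in class E-J and 11.26 ± 0.23 (SD, n = 4) in class K-N, and the classes overlapped between 11.39 and 11.58. TNIP1 was also lower without overlap in class E-J. TNFAIP3 was listed lower there too, but NE41 alone of that class reached a signal of 100, and the gene met the filter only with the normal nodes. In class E-J against the normal nodes 15.2% of genes had no overlap, 7.97% lower and 7.26% higher. TNIP1 had the lower mean in class E-J, 8.47 ± 0.19 (SD, n = 6), against 8.82 ± 0.15 (SD, n = 4) in K-N and 9.38 ± 0.27 (SD, n = 4) in normal nodes. In class K-N, where 16.0% of genes had no overlap, 9.12% lower and 6.93% higher, RELA and REL were lower beside NFKBIA. RELA was at 7.31 (FS25), 7.36 (NE45), 7.62 (RB10) and 7.88 (RB07), all below the lowest normal node at 8.40, and in class E-J it was at 3.70 (RB16) and otherwise 7.33 to 8.77.

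NFKB1 did not separate any pair of classes. Its means were 7.05 ± 0.68 (SD, n = 4) in normal nodes, 7.28 ± 0.51 (SD, n = 6) in class E-J and 7.42 ± 1.04 (SD, n = 4) in class K-N. The dimmer of its CfaAffx probe sets reached a signal of 100 on 4 of 14 arrays and ran from 2.56 to 7.65. Its other probe sets ran from 7.10 to 9.11 (Cfa) and from 7.09 to 9.52 (CfaAffx).

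The inhibitor genes also differed in how much they varied among the 10 lymphomas. TNIP1 had an SD of 0.24 in log2 level, and 2.44% of 9400 genes had a lower SD. NFKBIA had an SD of 0.40 (17.5% of genes lower), against a median of 0.69 over all genes. RELA and TNFAIP3 had SDs of 1.37 and 1.63, above those of 81.3% and 87.1% of genes. The SD of RELA rested on RB16, and that of TNFAIP3 in part on NE45. TNFAIP3 reached a signal of 100 in 2 of 10 lymphomas, so its spread is limited by background. Without RB16 the SD of RELA over 9 lymphomas was 0.49, with 30.4% of genes lower, and without NE45 that of TNFAIP3 was 0.82, with 59.9% lower. NFKB2, NFKB1 and REL, at 0.61, 0.72 and 0.83, stood near the median.

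The rest of the pathway was described by lists of upstream kinases and adaptors, receptors, ligands, further inhibitors and genes that NF-kB is known to induce. In 10 lymphomas against 3 normal dogs, 0 of 14 further inhibitors passed (median log2 difference -0.09), 0 of 13 receptors (median -1.10) and 0 of 7 ligands (median -0.31), while the median of all genes was -0.03. Of 24 kinases and adaptors 1 rose and none fell, with a median of -0.10, beside 1.03% of all genes higher and 2.60% lower. That gene was UBE2N, which encodes the Ubc13 enzyme that builds the ubiquitin chains used in NF-kB signalling. The lymphomas averaged 12.37 ± 0.46 (SD, n = 10) and the normal dogs 10.85 ± 0.23 (SD, n = 3), a difference of 1.52 (SE 0.31, adjusted p = 0.0225 by limma).

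Of 33 NF-kB target genes tested, 4 fell and 0 rose, beside 2.60% of 9400 genes lower and 1.03% higher. A difference above 0 was seen in 8 of the 33, and their median was -0.62 over all 33. ICAM1, an adhesion molecule, fell by 2.14 on the log2 scale (SE 0.43, adjusted p = 0.0224 by limma). CCL21 and CCL19 are chemokines that guide lymphocytes and dendritic cells within the node. CCL21 fell by 3.48 (adjusted p = 0.0229), and CCL19 fell by 2.63 (adjusted p = 0.0497), in the same limma fit. The ranges of CCL19 overlapped, with its highest lymphoma at 11.95 and its lowest normal node at 11.91. CD86, a costimulatory molecule of antigen-presenting cells, fell by 1.80 (adjusted p = 0.0427). Without RB07, RB10 and FS22, UBE2N and these 4 genes passed (adjusted p = 0.00483 to 0.0473 by limma), as they did without 3024l, and without dog 3024 none of the 5 did (adjusted p = 0.0807 to 0.166). These chemokines are made in the node by stromal and endothelial cells, whose markers fell in the counts given above, and the part of those cells in these values was not tested.

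**Figure D4:**
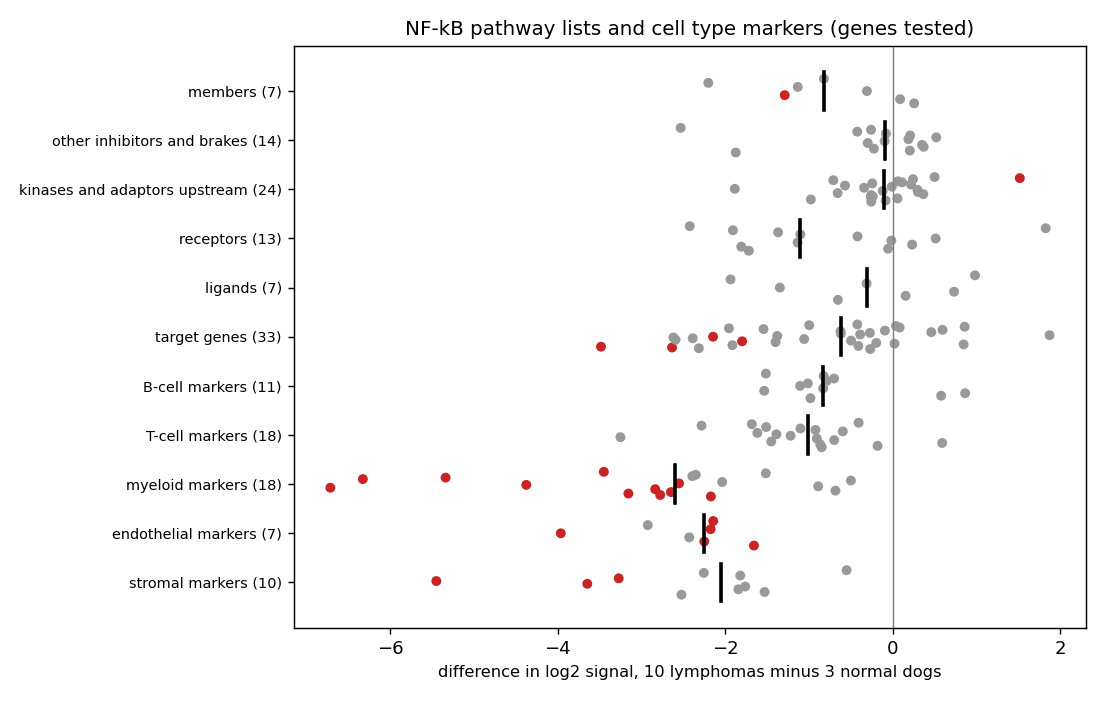
Difference in log2 signal in 10 lymphomas minus 3 normal dogs for each gene tested in the NF-kB lists and the cell type marker lists, with the number of genes in parentheses; each point is a gene, red marks an adjusted p under 0.05 by limma, and black bars are medians. UBE2N at 1.52 is the red point above 0, and the medians of the myeloid, endothelial and stromal markers lie at -2.60, -2.25 and -2.05. Red blood cell markers are not drawn. Of these ALAS2 alone was tested, and it was called higher. It reached a signal of 100 in 6 of 10 lymphomas and on 0 of 4 normal nodes, so it was tested only through the lymphomas.

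In the study's B-cell set, where 10.9% of all genes passed and 7.39% fell, 7 of 30 target genes fell and 1 rose, with a median of -0.90 against -0.06 for all genes. CCL19 (-3.62), CCL21 (-4.24) and SDC4 (-1.75) were among those that fell, with limma adjusted p values of 0.00976 to 0.0160. RIPK2, a kinase of the NOD receptors, rose by 2.02 (SE 0.28, adjusted p = 0.0104 by limma). Of the further inhibitors 1 of 13 was called lower, of 24 kinases and adaptors 1 was called lower and UBE2N higher, by 1.82 (adjusted p = 0.0110 by limma), of 10 receptors 2 lower and of 4 ligands 1 lower. In 4 of the genes called lower, every lymphoma was under a signal of 100, so that they were tested through the normal nodes and only the levels are given. TNIP3, a relative of TNIP1, was at most 4.23 in the lymphomas and at least 7.04 on the normal nodes. PRKCQ, the protein kinase C of T cells, was at most 6.47 and at least 8.58, BCL2L1, which encodes the survival protein BCL-xL, at most 6.48 and at least 7.64, and NFIL3 at most 6.58 and at least 7.38. CD27, a receptor of T and B cells, reached a signal of 100 in 2 of the 4 lymphomas and IL1R1, the interleukin-1 receptor, and the ligand gene TNFSF11 in 3 of 4 each, and their highest lymphomas (7.91, 8.92 and 7.26) were below their lowest normal nodes (9.67, 9.28 and 8.83). CD27 thus met the filter on dim genes only with the normal nodes. PRKCQ and CD27 are genes of T cells as well. In this comparison 11 of 17 T-cell markers were called lower, some of them tested only through the normal nodes. The part of those cells in these values was not tested. With 3024l in place of 3024r, UBE2N, CCL19, CCL21 and TNFSF11 passed, and SDC4, RIPK2 and IL1R1 did not (adjusted p = 0.0522 to 0.257 by limma). TNIP3 was then too dim to test, and PRKCQ, BCL2L1, NFIL3 and CD27 are left out as tested through the normal nodes. In the comparison of labelled B-cell with T-cell lymphoma no gene of these lists passed.

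Across the classes, 13 of 91 genes tested in the pathway lists (14.3%) did not overlap between K-N and E-J, beside 10.7% of all genes. Named here after their values were seen, CD40, the receptor through which T cells activate B cells, had class means of 8.46 in K-N, 10.95 in E-J and 10.08 in normal nodes, and BCL10, an adaptor of antigen receptor signalling, 8.36, 9.99 and 9.47. CD27 ran the other way, at 9.66 in K-N and 7.08 in E-J. The lineage markers of the classes differed as given above, and their part in these values was not tested.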

How the data were processed

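Signal intensities of 43035 probe sets were deposited by the authors for 14 arrays. Per the labels and the study's methods, RNA was extracted with RNeasy Micro, amplified with WT-Ovation Pico and summarised with MAS5 on a linear scale with the trimmed mean set to 500; 96% of probe sets, those between the tails, averaged 500.1 on each array. Array processing ran in batches whose members are not given in the sources used here. Signals were taken to log2 without further scaling. The 29254 probe sets with exactly 1 symbol in the array's gene table were averaged into 15115 genes, and limma (version 3.58.1, under R version 4.3.3) tested those reaching a signal of 100 on 3 or more arrays of a comparison (linear fit and moderated statistics, Benjamini-Hochberg adjustment over all genes tested, threshold 0.05). Group labels came from the sample records, classes E-J and K-N and the 4 lymphomas of the B-cell set from the study, whose methods do not name its 3 normal samples. The number of arrays limits the precision, and the p-values measure the spread between dogs.

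The text names all 9 members with their probe sets, up to 6 genes of each pathway list and comparison that passed, by smallest p, CD79A and CD3E, and for each member the gene with the most similar levels. Called marker genes that were dim in a group are named as well. Members and lists were chosen with earlier results of these data known. No sequences or genome coordinates of the array's build were used here. The tests were checked on simulated data, and alternatives changed 1 choice at a time (filter, scaling, pseudocount, floor, gene summary, unit of the test, test, arrays in the fit, and each array left out in turn). Plots were made in Python (version 3.11.15) with matplotlib (version 3.10.9).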

Additional observations from a re-analysis of the deposited data

Results flagged for a closer look

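Of 36 groups of 4 to 10 arrays examined for a single array far from the others by Dixon's test, 5 had such an array, and chance alone gives about 1 in 20 groups. The groups share arrays and some values are under a signal of 100, so this rate cannot show an excess. In RELA, RB16 was at 3.70 in log2 level, while the other B-cell labelled lymphomas were at 7.33 to 8.77, and the same array stood apart among the class E-J lymphomas. In TNFAIP3, RB16 was at 4.84 and the other lymphomas of class E-J were at 6.46 to 6.74, where only NE41 reached a signal of 100. In NFKB1, FS21 was at 6.29 and the others of class E-J at 7.27 to 7.73. In RELB, NE41 was at 7.04 and the others of class E-J at 5.10 to 5.82, which are under a signal of 100.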

How the results depend on the processing

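In 10 lymphomas against 3 normal dogs, where limma called 1 member, the count was 0 with no filter on dim genes (NFKBIA adjusted p = 0.0687), without dog 3024 (chosen after seeing the data) and without RB07, RB10 and FS22. It was 2 with a signal of at least 200 and with the mean of linear signals, and 3 with log2(signal + 50) and with signals raised to at least 100, which include TNFAIP3, although 8 of its 10 lymphoma values were under a signal of 100. Leaving out each array in turn gave 0 to 2, with 0 without 63 or 2970 and 2 without NE45, RB07 or 3024l. NFKBIA was lower in all 26 alternatives (-1.43 to -1.16) and passed in 21. TNIP1 was lower in all 26 (-0.93 to -0.70) and passed in 7.

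In the study's B-cell set, where 1 member was called, the count was 0 with no filter, with arrays centred on their medians, with the brightest probe set, with the methods' t-test (Welch), with 3024l or the mean of both nodes in place of 3024r, and with all 7 B-cell labelled lymphomas. It was 2 with a signal of at least 200, quantile normalization, the mean of linear signals and limma with an intensity trend, and 3 with log2(signal + 50) and with signals raised to at least 100, again with TNFAIP3, which was under a signal of 100 in all 4 lymphomas. Leaving out each array gave 0 to 2, with 0 without 63, 3024r, 2970, NE42 or RB16 and 2 without RB03. TNIP1 was lower in all 20 alternatives (-1.08 to -0.82) and passed in 8, and NFKBIA was lower in all 20 (-1.27 to -0.91) and passed in 7. Between labelled B-cell and T-cell lymphoma the count was 0 under every alternative run, and the methods' t-test (Welch) called 0 genes in all.

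These differences changed direction, none of them past the threshold. In all lymphomas NFKB2 was -0.20 with linear means, -0.30 with the brightest probe set and -0.067 without 2970, and NFKB1 -0.13 without 2970. In the B-cell set NFKB1 was -0.057 with log2(signal + 50), -0.13 with the floor, -0.15 with linear means, -0.26 with the brightest probe set, -0.11 without NE42 and -0.31 without 2970, and REL was -0.17 with all 7 B-cell labelled lymphomas. Between the labels RELA was 0.031 with log2(signal + 50), 0.24 with the floor and 0.42 without RB16, and without FS25 NFKB1 was -0.22 and REL -0.12. The cause was not tested.

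Over all genes, limma called 341 in all lymphomas, and 112 with no filter, 744 with log2(signal + 50), 959 with the floor, 557 with linear means, 893 by the Welch test, 57 without dog 3024 and 3 to 469 with each array left out. In the B-cell set it called 902, and 193 with no filter, 1613 with log2(signal + 50), 1807 with the floor, 1424 with linear means, 8 by the Welch test, 232 with 3024l for 3024r, 181 with all 7 B-cell labelled lymphomas and 15 to 1207 with each array left out. Quantile normalization moved the share of higher genes among those called from 28.4% to 38.8% and from 32.04% to 43.2%, and the median of all genes in the B-cell set from -0.06 to 0.06. The refits of single pathway genes and marker lists without certain arrays, and the SDs without 1 array, were chosen after seeing the data. A fit with the dog as a random block was not run, since only 1 dog had more than 1 node. No paired analysis was possible because the groups compared came from different dogs. Members near a signal of 100, such as TNFAIP3, are limited by background.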

Other observations

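For each member that was bright enough, the gene whose log2 level followed it most closely over the 13 dogs was found among 9400 genes, with dog 3024 as the mean of its nodes. REL was closest to GPR157, an orphan receptor (Pearson r = 0.968, Spearman rho = 0.885). NFKBIA was closest to MYLIP, a ubiquitin ligase that acts on the LDL receptor (r = 0.919, rho = 0.940), TNIP1 to STOM, the membrane protein stomatin (r = 0.921, rho = 0.885), and TNFAIP3 to SGCE, a sarcoglycan (r = 0.939, rho = 0.791), with TNFAIP3 under a signal of 100 in 8 of 10 lymphomas. RELA was closest to YAP1, an effector of Hippo signalling (r = 0.945, rho = 0.830), NFKB2 to CMKLR1, the chemerin receptor (r = 0.895, rho = 0.901), and NFKB1 to CERS5, a ceramide synthase (r = 0.789, rho = 0.780). Each value is the highest over all genes tested, and the dogs fall into normal and lymphoma groups, so these correlations are descriptions of this set of arrays. Among the members themselves, NFKBIA was closest to TNFAIP3 (r = 0.673), TNIP1 to NFKBIA (r = 0.609) and REL to NFKB2 (r = 0.529).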
